A study of Caenorhabditis elegans with 15 samples.

Results

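The intestine of gas-1(fc21) Caenorhabditis elegans was set against the intestine of wild type worms by RNA sequencing of whole transcripts. The strain labels place 5 libraries in the gas-1(fc21) group and 5 in the wild type group, 10 of the 15 libraries of the series. The other 5, gas-1(fc21) worms that overexpress the carboxylesterase gene cest-2.2, entered only the shared estimate of the spread. Each library held the pooled intestines of 20 worms that had grown for 5 days on plates seeded with OP50, the usual laboratory Escherichia coli strain.

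The gene gas-1 encodes a core subunit of respiratory complex I, the enzyme that passes electrons from NADH to ubiquinone and pumps protons across the inner mitochondrial membrane. The fc21 allele is a missense mutation, and worms that carry it are known for sensitivity to volatile anaesthetics, sensitivity to oxygen and a short life. The mutation is in every cell of the worm and not only in the intestine. The worm intestine digests bacteria, stores fat, makes yolk for the oocytes, clears foreign compounds and defends against microbes, so genes of all these roles were examined. The labels name neither separate cultures nor days for the replicates, nor how often the strain was outcrossed. The p-values therefore measure the spread between these libraries, which may be technical, and other differences between the 2 strains cannot be told apart from the allele.

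Levels are in CPM, estimated counts scaled to a common library total with edgeR's TMM factors, and a log2 change is gas-1 over wild type with its standard error from the fit. Total estimated counts ran from 12607565 to 17688689 in the gas-1 libraries and from 12182697 to 40045140 in the wild type libraries. At least 10 counts were seen for 9380 to 10304 genes in gas-1 and for 9820 to 10892 genes in wild type. Over the 1000 most variable genes, the first principal component held 41.4% of the variance. The gas-1 libraries lay at 27.6 to 51 on it, 4 of the wild type libraries at -69.2 to -31.8, and wild type replicate 3 at 5.82. Intestine marker genes were present in all libraries, and all 20 of them had counts in each.

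The dissected tissue carried transcripts of neighbouring tissues, and these differed between the groups. Body wall muscle markers summed to 389 to 674 CPM in gas-1 and to 399 to 3948 CPM in wild type, where replicates 1, 2 and 4 held 2466, 1429 and 3948 CPM. Cuticle collagens, made by the epidermis, summed to 948 to 4840 CPM in gas-1 and to 306 to 17691 CPM in wild type, again with replicates 1, 2 and 4 highest. Germline markers summed to 2785 to 4455 CPM in gas-1 and to 4466 to 5381 CPM in wild type, and oocyte and early embryo markers to 5509 to 9397 CPM and to 11960 to 13325 CPM, so that in both lists all 5 gas-1 libraries lay below all 5 wild type libraries, by a narrow margin for the germline list. All 32 germline and all 26 oocyte markers had counts in each library. Intestine markers summed to 10365 to 16857 CPM in gas-1 and to 5912 to 13641 CPM in wild type, and these ranges overlapped.

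**Figure D1:**
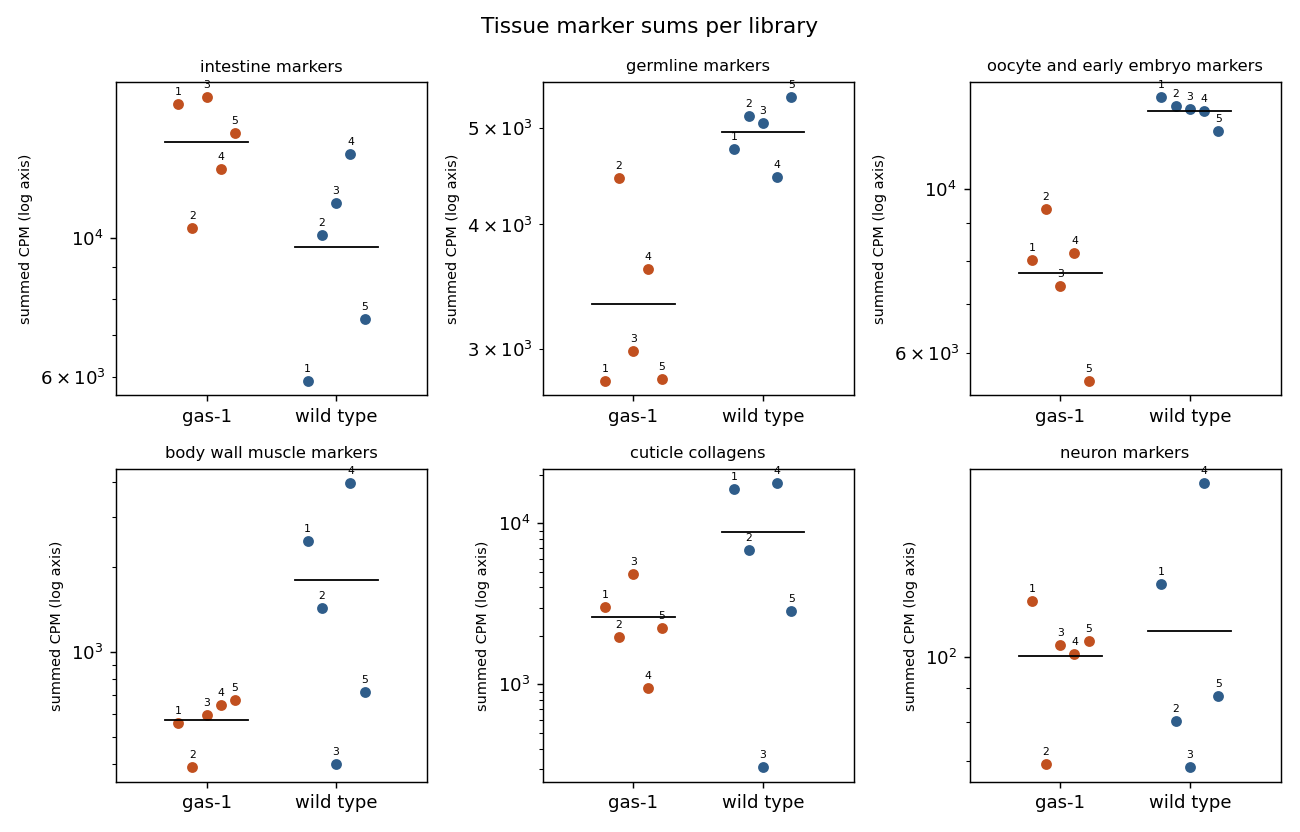
Summed CPM (log axis) of 6 lists of tissue marker genes in each of the 5 gas-1 libraries (left) and the 5 wild type libraries (right); points are libraries numbered by replicate and bars are group means. Wild type replicates 1, 2 and 4 carry the highest muscle and cuticle collagen sums, and the germline and oocyte sums of the groups do not overlap.

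The edgeR quasi-likelihood test with Benjamini-Hochberg adjustment called 2268 of 10585 tested genes (21.4%) at 0.05. Of these, 1355 genes (12.8%) were higher in gas-1 and 913 genes (8.63%) were lower. These shares are the background given for the groups of genes below, but the shares also differed with level. Among the 2117 genes of lowest mean log2 CPM, 5.01% were called higher and 3.02% lower. Among the 2117 genes of highest mean log2 CPM, 18.1% were called higher and 19% lower. The lists were not matched to genes of like level. All 5 gas-1 libraries lay apart from all 5 wild type libraries in 1683 genes (15.9%), above them in 1018 (9.62%) and below them in 665 (6.28%). A call came with a change of at least 2-fold in 1011 higher genes (9.55%) and 275 lower ones (2.6%). It held in all 10 fits that left out 1 library for 1083 genes (10.2%), of which 874 (8.26%) were higher and 209 (1.97%) lower. The median log2 change of all tested genes was -0.11, against -0.36 on a TPM scale and -0.01 with upper quartile scaling, and 40.9% and 72.6% of the calls were then higher, against 59.7% with TMM. The number of calls was 172 when the germline marker level of each library entered the fit as a covariate, and 154 of these were among the 2268. That covariate is made of germline genes and its level separated the groups, so it is largely aligned with genotype, and a call lost under it does not show where a transcript came from. Among the genes named in this text, the direction also turned under that covariate, without a call, for elt-2, nduf-2.2, nhr-68, nhr-114, cysl-1, ddo-2, gpd-3, hil-4, lmp-1, mak-2, rpl-11.2, slc-25A10 and unc-13. It was 633 without wild type replicates 1, 2 and 4, which left 2 wild type libraries, and 595 of the 2268 (5.62%) were among these, 503 higher (4.75%) and 92 lower (0.869%). Leaving out 1 library gave 1333 to 2492 calls, with 1511 without gas-1 replicate 3, 1337 without wild type replicate 1 and 1333 without wild type replicate 5. Calls of lower genes moved most, to 404 without gas-1 replicate 5, 517 without gas-1 replicate 3, 580 without gas-1 replicate 1, and 306, 318 and 305 without wild type replicates 1, 2 and 5. In bulk tissue, fewer cells of a type and less RNA per cell cannot be told apart.

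**Figure D2:**
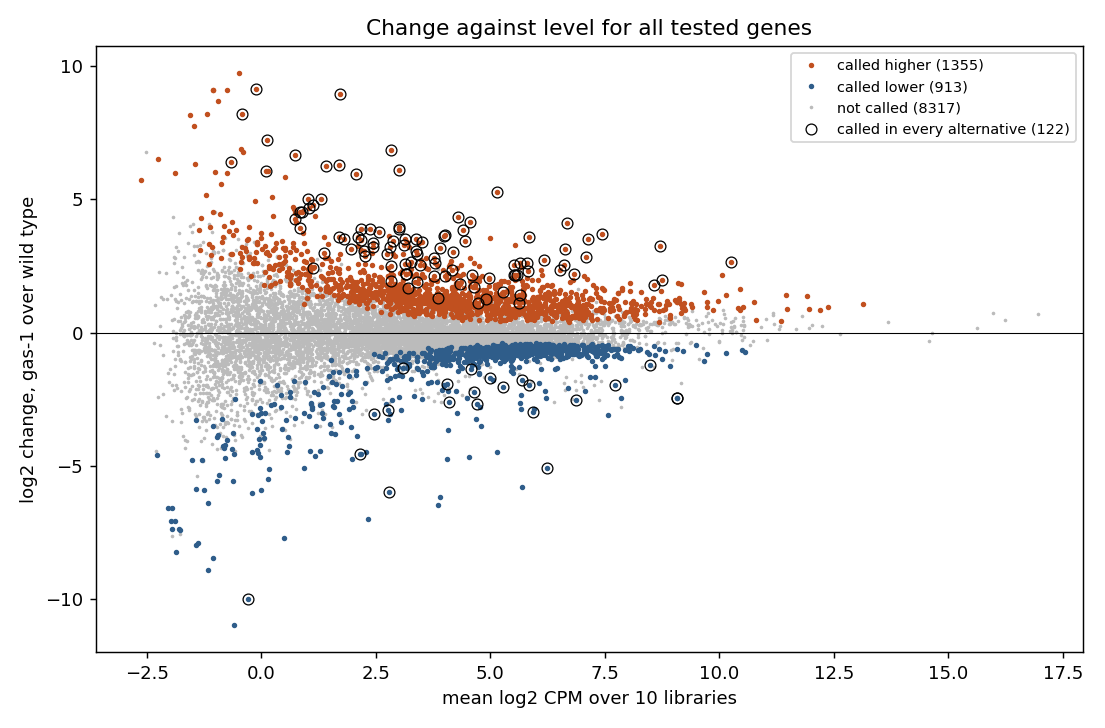
Log2 change of gas-1 over wild type against the mean log2 CPM of the 10 libraries for 10585 tested genes; coloured points are the 1355 genes called higher and the 913 called lower, and black rings mark the 122 genes called in the fit and in all 21 alternatives. Higher calls reach changes above 5 on the log2 scale, and the ringed genes lie mostly above the axis.

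The mutated gene had a higher transcript level in the mutant. The gas-1 transcript (WBGene00001520, chromosome X, 15586786 to 15590397, build WBcel235) stood at 145, 94.7, 119, 117 and 143 CPM in gas-1 replicates 1 to 5 and at 66, 65.5, 72.1, 87.7 and 47.8 CPM in wild type replicates 1 to 5. The groups did not overlap, and the log2 change was 0.87 ± 0.19. Permuting the libraries, an exact two-sided test on log2 CPM gave p = 0.00794, the smallest that 5 against 5 libraries allow, and 0.0119 after adjustment over 3 single-value tests. Because fc21 changes a codon and removes no exon, this level does not check the strain label. A second gene for the same subunit, nduf-2.2 (chromosome III, 6465222 to 6467206), moved the other way. It had 46.1, 60.4, 55.5, 60.9 and 36 CPM in gas-1 and 70.2, 89.3, 83.9, 76.5 and 94.1 CPM in wild type, and it fell by 0.68 ± 0.22 on the log2 scale (adjusted p 0.0359). Its groups did not overlap either, but the call held in only 2 of the 10 fits that left out 1 library. Neither gene was called with the germline covariate described above.

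A set of 122 genes (1.15%) was called in the same direction in the fit and in all 21 alternatives, which included the germline covariate and the removal of wild type replicates 1, 2 and 4. Of these, 100 (0.945%) were higher and 22 (0.208%) lower in gas-1. They were picked by their values, so their levels are given as a description. Among the higher ones, msra-1, a methionine sulfoxide reductase that repairs oxidised protein, had 505, 293, 455, 301 and 313 CPM in gas-1 and 40.9, 62.2, 68.1, 41.4 and 45.1 CPM in wild type (log2 2.86 ± 0.25). All mutant libraries lay far above all wild type libraries. The bZIP transcription factor gene zip-11 had 23.8, 23, 32.7, 25 and 30.4 CPM in gas-1 and 2.65, 1.67, 2.95, 3.64 and 2.97 CPM in wild type (3.29 ± 0.31). The C-type lectin gene clec-4 had 745, 442, 482, 747 and 826 CPM in gas-1 and 44.5, 63.9, 70.9, 45.5 and 26.5 CPM in wild type (3.69 ± 0.32). In all 3 genes every mutant library lay far above every wild type library.

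Other genes of the 100 belong to export, junctions and the cytoskeleton. The ABC transporter gene pgp-1, a P-glycoprotein of the intestine, had 478, 513, 737, 262 and 535 CPM in gas-1 and 23.6, 41.4, 66.8, 50.7 and 36 CPM in wild type (3.53 ± 0.36), and its relative pgp-9 averaged 196 and 29.4 CPM. The claudin-like genes clc-24, clc-25 and clc-27 averaged 144, 37.6 and 24.7 CPM in gas-1 and 23.8, 3.23 and 2.25 CPM in wild type. The kinesin gene klp-4 had 21.8, 23.3, 28.8, 40.3 and 70.2 CPM in gas-1 and at most 2.24 CPM in wild type (5.97 ± 0.70). Beside it stood tba-7, an alpha tubulin gene, at 47.3 ± 21.0 CPM in gas-1 and 5.23 ± 1.85 CPM in wild type (SD, n = 5 each). Further members of the set were sqst-1, the receptor that delivers ubiquitinated cargo to autophagosomes, at 108 ± 39.8 and 23.9 ± 8.17 CPM, lias-1, which makes the lipoic acid of mitochondrial dehydrogenases (log2 1.10 ± 0.13), and lmtr-3, a subunit of the lysosomal Ragulator complex (1.11 ± 0.20). Several of the steepest have no name beyond their sequence, such as B0205.13, which averaged 58.6 CPM in gas-1 and 0.14 CPM in wild type, and T19C9.8, which averaged 78.0 and 1.08 CPM.

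Among the 22 lower genes, acox-1.2 (chromosome I, 12942280 to 12946588), for an acyl-CoA oxidase that shortens the side chains of ascaroside pheromones in peroxisomes, had 24.9, 18.3, 17.3, 24 and 25.5 CPM in gas-1 and 128, 171, 203, 239 and 137 CPM in wild type. Its log2 change was -2.996 ± 0.23, and the groups were far apart. The gene acl-4, for a glycerol-3-phosphate acyltransferase at the entry to triglyceride and phospholipid synthesis, had 28.3, 24.8, 25.1, 29.9 and 32.5 CPM in gas-1 and 73.6, 103, 108, 121 and 75.8 CPM in wild type (-1.78 ± 0.19). The short-chain dehydrogenase genes dhs-19 (-2.59 ± 0.32) and dhs-25 (-1.21 ± 0.27), the glucuronosyltransferase gene ugt-53 (-2.67 ± 0.39), the aspartyl protease gene asp-14 (-1.98 ± 0.32) and the calcium-transporting ATPase gene mca-1 (-1.38 ± 0.23) were also in the set. So was dod-24, named as a gene downstream of the transcription factor DAF-16, with 38.4, 22.1, 29.2, 20.6 and 38.4 CPM in gas-1 and 79.1, 129, 119, 151 and 108 CPM in wild type. The uncharacterised T22B7.7 averaged 15.5 ± 12.4 CPM in gas-1 and 527 ± 171 CPM in wild type, and its groups were far apart.

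**Figure D3:**
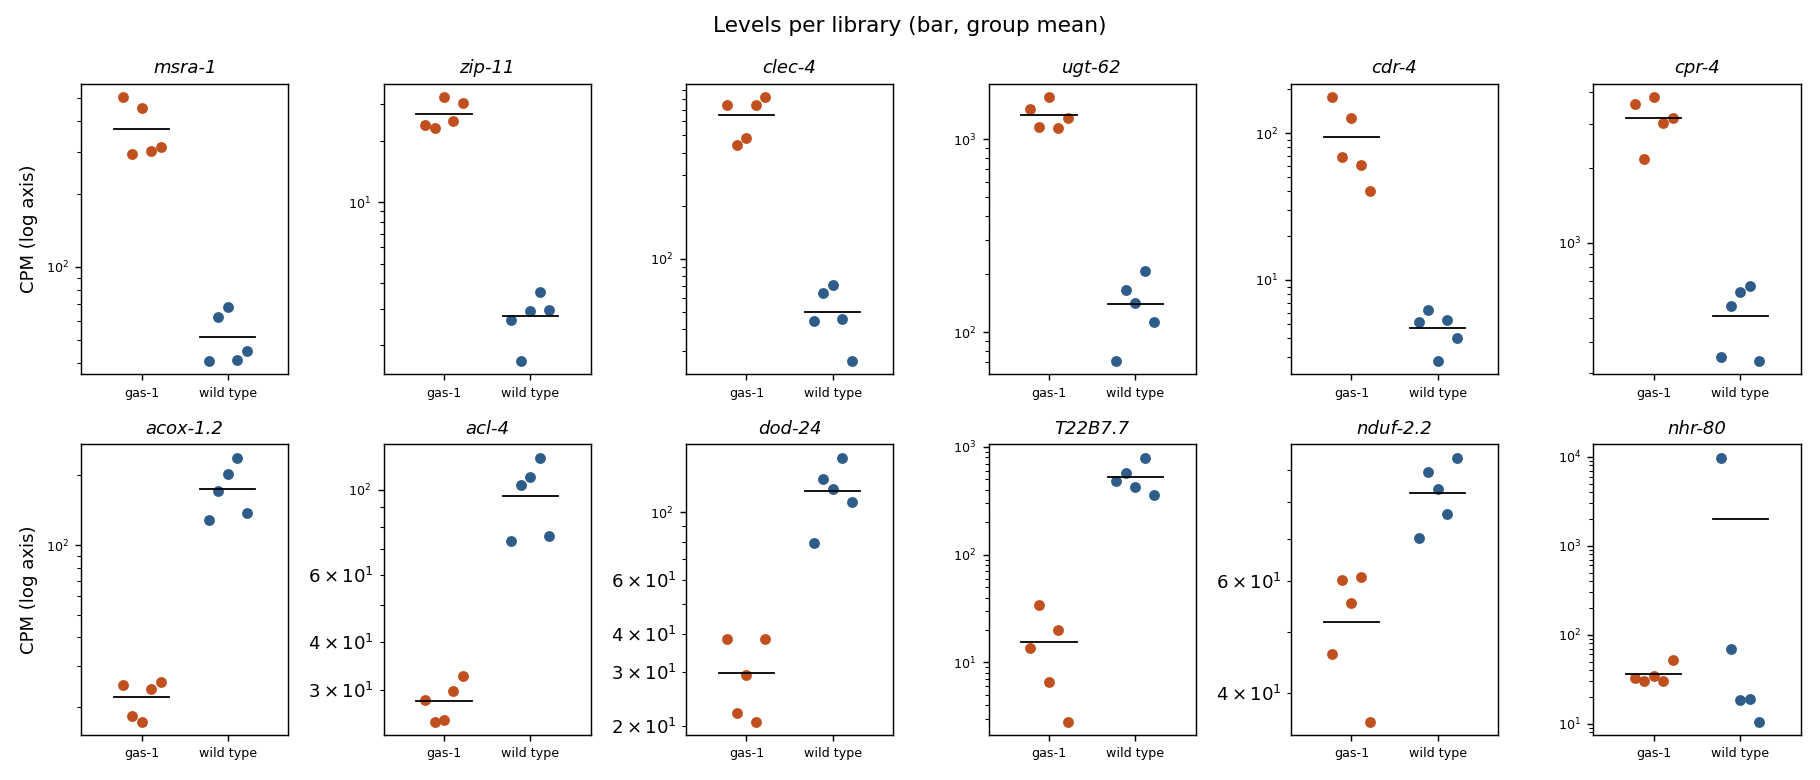
CPM (log axis) of 12 genes in each library, with the 5 gas-1 libraries to the left of the 5 wild type libraries in every panel and bars at the group means; the upper row holds genes called higher and the lower row genes called lower. In the 11 panels other than nhr-80 the groups do not overlap, and in the nhr-80 panel wild type replicate 1 stands alone at 9788 CPM.

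Some changed genes lay side by side. Of the tested genes in chromosome order, 18 runs of at least 4 neighbours were called in the same direction, 16 higher and 2 lower. These runs were found by looking at the values. The longest was 8 cytochrome P450 genes of the cyp-13A cluster on chromosome II (9783384 to 9807569), all higher in gas-1 with log2 changes of 2.36 to 5.83. Within it, cyp-13A5 had 662, 535, 696, 321 and 434 CPM in gas-1 and 9.29, 87.9, 26.6, 9.51 and 16.8 CPM in wild type, while cyp-13A7 had 54.8, 56.6, 43.6, 22.3 and 13.3 CPM in gas-1 and 0.104, 4.01, 3.26, 4.94 and 5.93 CPM in wild type. The copies resemble each other, so part of the reads of one may have been assigned to another.

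A second run on chromosome II (13819626 to 13825843) held 6 histone genes. The copies his-12, his-11 and his-25, for core histones, averaged 18.9, 14.7 and 23.1 CPM in gas-1 and 1.24, 1.22 and 2.52 CPM in wild type. The other 3, his-10, his-14 and his-26, had equal counts in all libraries, as estimated counts of identical sequences do, and form 1 measurement (log2 2.84 ± 0.60). In the histone list, 8 of 42 tested genes rose and 2 fell, the median was -0.04, and all 8 rises were also called without wild type replicates 1, 2 and 4. The genes that fell were his-48 (-1.02) and hil-4 (-0.64), a linker histone gene. On chromosome IV (885344 to 909223), mak-2, a MAP kinase-activated kinase gene, was followed by 5 F-box genes that make up only 2 measurements, since fbxc-2, fbxc-3 and fbxc-4 had equal counts (2.19 ± 0.23) and so had fbxc-1 and fbxc-5 (1.43 ± 0.35).

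On chromosome V, a run from 8936359 to 8966186 ended in 2 nuclear hormone receptor genes, nhr-44 with 10.7, 19.9, 8.59, 17.7 and 20.9 CPM in gas-1 and at most 1.15 CPM in wild type, and nhr-219 with 8.84, 5.73, 3.57, 7.33 and 1.99 CPM in gas-1 and 0 in all 5 wild type libraries. Against a floor of 3 counts over the wild type group, nhr-219 was at least 218-fold higher in gas-1. Elsewhere on chromosome V the direction turned at srbc-15 (2345676 to 2348123), annotated as a pseudogene and named after a chemoreceptor family. It had 0 counts in all 5 gas-1 libraries and 4.72 to 8.76 CPM in wild type. Against the same kind of floor, srbc-15 was at least 168-fold lower in gas-1. Its neighbours irld-53 (-2.90 ± 0.33) and clec-209 (-2.47 ± 0.25) fell, and F56A4.3, at 2453414 to 2456147, averaged 0.887 CPM in gas-1 and 56 CPM in wild type. The counts of clec-209 equalled those of F56A4.2, so the 2 genes are 1 measurement. Within the same stretch F56A4.5 (2437960 to 2439871) went the other way, with 14.6 CPM in gas-1 and 0.523 CPM in wild type. Sequence differences between the strains in these stretches were not tested. The libraries carry no strand, so reads of exons that overlap a gene on the other strand cannot be told apart. Such overlaps took at least 100 bases for acl-4, age-1, aap-1, elo-5, lipl-4, pyk-2, spp-15, mrps-35 and trxr-2. Exons of nprl-2, vha-2, klf-3 and T19C9.8 overlap another gene on the same strand by as much, and their values are uncertain too.

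By chromosome, higher calls made up 17.8% of tested genes on V, 14.5% on X, 13.6% on IV, 12.4% on II, 9.65% on III and 8.35% on I. Lower calls made up 5.32% on X and 11.4% on I, with the other autosomes at 7.7% to 9.32%. In the 1 Mb on either side of gas-1, 30 of 141 tested genes were higher (21.3%) and 12 lower (8.51%), and in 2 Mb the shares were 13.9% and 6.6% of 288 genes.

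All calls among intestine markers were higher in the mutant samples, and all calls among germline and oocyte markers were lower. Of 20 intestine markers 11 rose and none fell, with a median log2 change of 0.88, against -0.11 for all genes. They included the intermediate filament genes ifc-2 (1.59 ± 0.27) and ifb-2 (1.55 ± 0.28), which line the brush border, and elt-2 (1.21 ± 0.32, but -0.20 with the covariate), the transcription factor of intestinal identity, with 27.3, 10.7, 29.4, 15.3 and 29.9 CPM in gas-1 and 8.15, 9.38, 12.7, 10.5 and 7.81 CPM in wild type. The proteases cpr-6 (0.16 ± 0.25) and asp-1 (0.25 ± 0.26), the most highly counted markers, were not called. Of 29 brush border and junction genes 10 rose, led by ifd-2 (1.69 ± 0.23) and ifo-1, which organises the filaments (2.08 ± 0.33), and 3 fell, the adherens junction genes jac-1, hmp-1 and hmp-2 (-0.87, -0.82 and -0.72). With the germline covariate 1 of the 11 intestine markers, pgp-1, was still called, and 4 were when wild type replicates 1, 2 and 4 were left out.

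Of 32 germline markers 13 fell and none rose (median -0.62), and 14 of 26 markers of oocytes and early embryos fell, none rising (median -0.69). Among them were gld-3, an RNA-binding regulator of germ cell fate (-0.92 ± 0.18), glh-3, a germline helicase (-0.85 ± 0.20), and zif-1, which removes germ plasm proteins from embryonic cells (-0.78 ± 0.18). The yolk receptor gene rme-2 had 453, 955, 628, 688 and 561 CPM in gas-1 and 1081, 1059, 1288, 1113 and 1217 CPM in wild type, without overlap. Genes of DNA replication and the cell cycle followed these lists: 21 of 44 fell and 1 rose, with rnr-1, the large subunit of ribonucleotide reductase, at 167, 191, 191, 157 and 137 CPM in gas-1 and 314, 370, 325, 281 and 341 CPM in wild type, and mcm-7 (-0.92 ± 0.21) and mcm-3 (-0.78 ± 0.18) of the replicative helicase lower. The one that rose was rpa-4 (0.83), a replication protein A gene. Of 43 Argonautes and small RNA factors 14 fell, among them the germline Argonaute gene wago-1 (-0.82 ± 0.19) and the RNA polymerase gene ego-1 (-0.72 ± 0.17), and 2 rose, nrde-2 (0.85) and sid-2 (1.15), the intestinal importer of double-stranded RNA. Of 15 somatic gonad and sheath markers 4 fell (26.7%) and none rose, and their median of -0.2 was 0.02 without wild type replicates 1, 2 and 4. These lists share expression in the gonad, and the part of gonad tissue in their calls was not tested.

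Of 21 body wall muscle markers 6 fell (median -1.17), among them the myosin gene unc-54, with 24.3, 22.9, 30, 29.9 and 19.9 CPM in gas-1 and 219, 138, 14.1, 362 and 66.3 CPM in wild type. Wild type replicate 3 lay below all mutant libraries there. Without wild type replicates 1, 2 and 4 the median of the muscle list was 0.25 and 0 of its members was called lower. Cuticle collagens behaved alike, with 4 of 41 lower and a median of -0.99 that turned to 1.22 without these 3 libraries. Picked after their values were seen, some genes ranked the wild type libraries as the muscle markers did, such as lbp-2, a fatty acid binding protein gene, at 3.04, 2.8, 3.57, 0.458 and 2.24 CPM in gas-1 and 292, 253, 4.66, 477 and 56.1 CPM in wild type, and ule-4, at 15.9, 14.5, 5.24, 21.1 and 1.57 CPM and 318, 199, 25.8, 722 and 55.1 CPM. The fatty acid and retinol binding genes far-1, far-2 and far-6 fell by 2.45, 1.66 and 3.92 on the log2 scale. Sperm, neuron, pharynx and coelomocyte lists had at most 2 calls in a direction: spe-48, unc-64, unc-13 and lmp-1 rose and mec-12 fell. Of 11 tested hypodermis markers 2 fell (18.2%) and none rose, and 0 of them was called lower without wild type replicates 1, 2 and 4. Of 28 tested neuropeptide genes 2 rose and 1 fell. Their median of -1.37 was 0.29 without these 3 libraries. Of 10 tested pharynx markers edgeR, DESeq2 and limma-voom called 0, and 0 had an unadjusted p under 0.05.

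**Figure D4:**
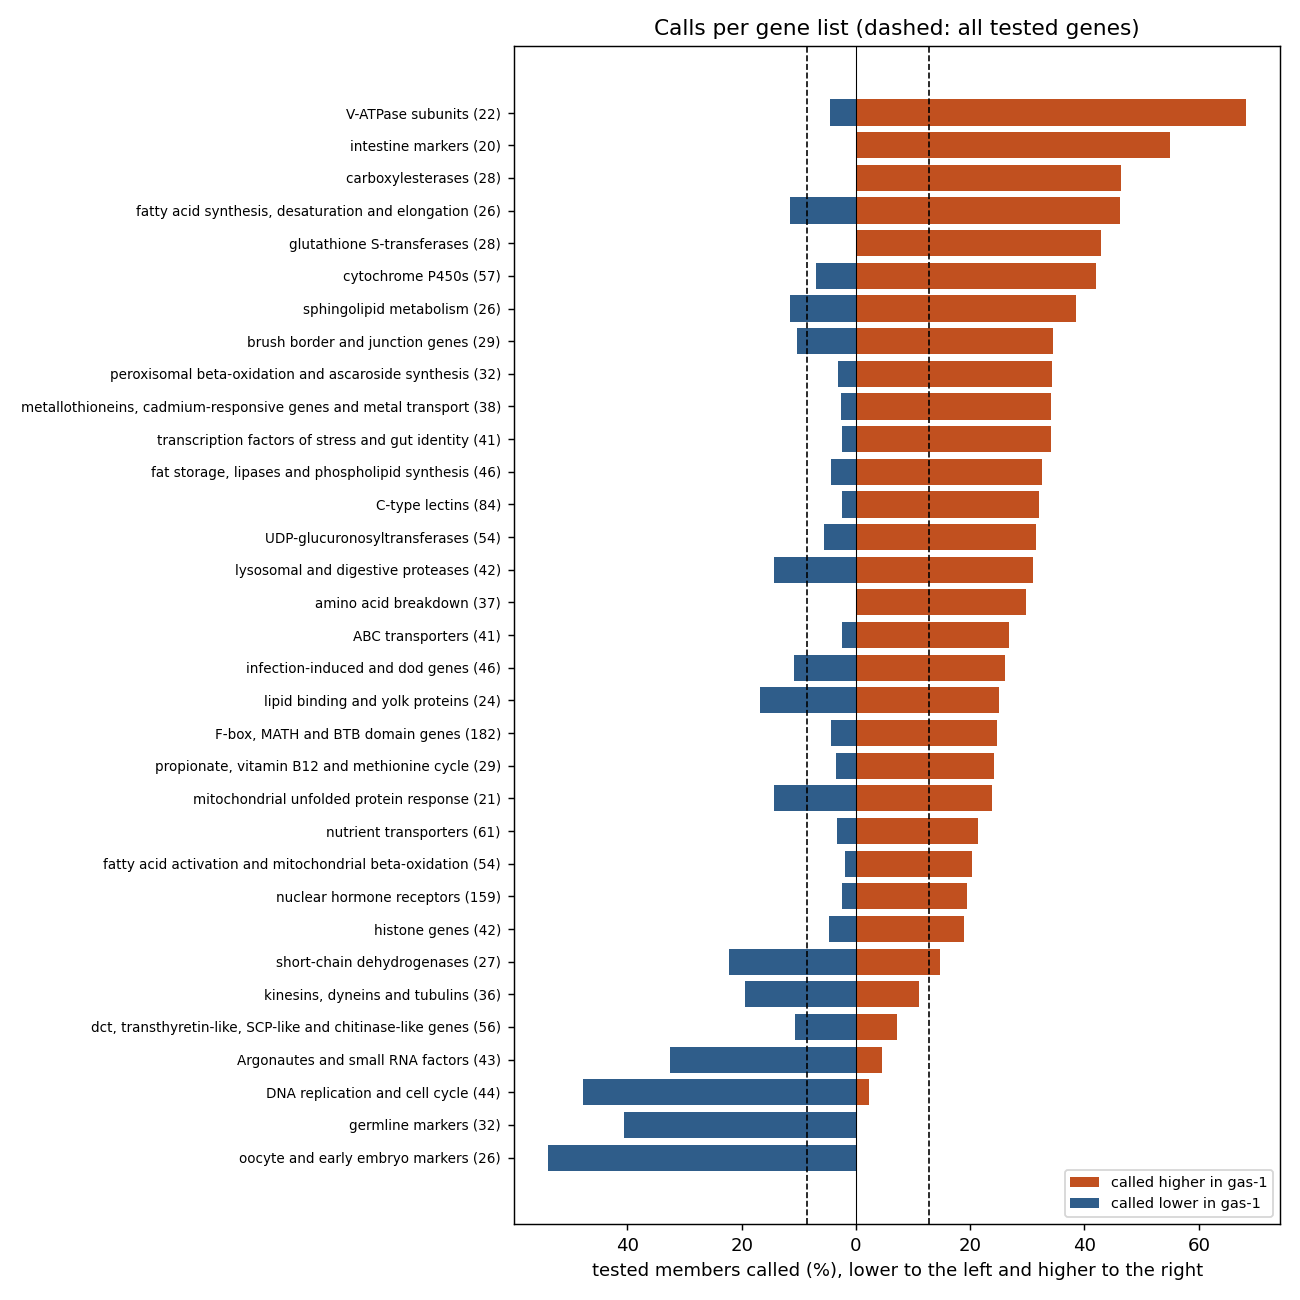
Share of tested members called higher (right of 0) and lower (left of 0) in gas-1 for 33 gene lists with at least 20 tested members and 8 calls, in percent; numbers are tested members, and dashed lines mark the shares over all tested genes, 12.8% higher and 8.63% lower. V-ATPase and intestine marker lists extend furthest to the right, and oocyte, DNA replication and germline lists furthest to the left.

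In each respiratory complex some subunits were called higher in gas-1, by small steps. In complex I, 8 of 18 subunits of the NADH and quinone modules rose and only nduf-2.2 fell (median 0.44), and 6 of 18 membrane arm and accessory subunits rose and none fell (median 0.45). The largest of these changes was that of ndub-11, with 104, 77.3, 92.6, 94 and 101.8 CPM in gas-1 and 44.2, 29.6, 49.8, 44.9 and 35.6 CPM in wild type (1.20 ± 0.18). None of the 5 assembly factors was called by edgeR, DESeq2 or limma-voom, and 0 had an unadjusted p under 0.05. Downstream of complex I, 2 of 5 subunits of complex II rose, the cytochrome b subunit mev-1 (0.74 ± 0.15) and the iron-sulfur subunit sdhb-1 (0.75 ± 0.17), while the isoform sdha-2 stood at -0.55 ± 0.21 (adjusted p 0.0642). In complex III 5 of 10 rose, including cyc-1, for cytochrome c1 (0.91 ± 0.17), and ucr-2.1, a core subunit (1.10 ± 0.20).

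Cytochrome c and complex IV gave 8 rises of 14, with cyc-2.1, for cytochrome c, at 182, 144, 189, 195 and 195 CPM in gas-1 and 87.4, 69.5, 73.4, 106 and 73.7 CPM in wild type. The assembly factors cox-15 (0.29 ± 0.16) and sco-1 (0.08 ± 0.19) were not called. ATP synthase gave 10 rises of 17, among them atp-3 (0.68 ± 0.14) and atp-4 (0.71 ± 0.16), while the catalytic subunit atp-2 had 1584, 1150, 1492, 1351 and 1487 CPM in gas-1 and 940, 1088, 1060, 1268 and 984 CPM in wild type, with overlap, and was not called (0.40 ± 0.16, adjusted p 0.0772). No member of these lists was called with the germline covariate. Without wild type replicates 1, 2 and 4, the rises still called were 1 in each complex I list, 1 in complex II and 2 in complex III. For cytochrome c and complex IV they were 3, and for ATP synthase 1. On a TPM scale 1 subunit of each complex I list was called higher, 2 of complex II and 2 of complex III. On that scale 5 rose in cytochrome c and complex IV and 5 in ATP synthase. The NADH and quinone module, complex II and ATP synthase lists had 1 fall each on it.

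Transcripts of the mitochondrial genome rose as well. They took 1.24% ± 0.177 of the counts in gas-1 and 0.827% ± 0.12 in wild type (SD, n = 5 each), a difference of 0.59 in mean log2 share with an exact two-sided permutation p of 0.00794, the smallest possible, and 0.0119 adjusted. Of 12 protein-coding genes 8 rose and none fell (median 0.90). The complex I subunit nduo-6 had 835, 1179, 1401, 1188 and 2603 CPM in gas-1 and 405, 519, 630, 421 and 549 CPM in wild type, and the cytochrome oxidase subunit ctc-1 had 4387, 6130, 6969, 5333 and 9684 CPM and 2905, 3358, 4084, 3904 and 3582 CPM. Gas-1 replicate 5 was highest for both, and the groups did not overlap. Without wild type replicates 1, 2 and 4, 1 of the 8 was still called.

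Of 16 genes of ubiquinone synthesis and other quinone reductases 3 rose, coq-1, which makes the isoprenoid tail (1.17 ± 0.21), clk-1, the hydroxylase of ubiquinone (0.96 ± 0.20), and F23C8.5 (0.68 ± 0.19), and gpdh-3 fell (-0.66 ± 0.19). None of the 26 genes of NADH shuttles and NAD metabolism was called, with 9 at an unadjusted p under 0.05, 5 called by DESeq2 and 4 by limma-voom. The malic enzyme gene men-1 stood at 0.60 ± 0.22 (adjusted p 0.0616) and the malate dehydrogenase gene mdh-1 at -0.34 ± 0.15 (adjusted p 0.102). Among mitochondrial carriers, slc-25A10 (0.80), vdac-1 (0.50), the adenine nucleotide carrier ant-1.1 (0.44) and F01G4.6 (0.41) rose, and mcu-1, the calcium uniporter, fell (-0.65), as did C16C10.1 (-0.57). On a TPM scale this list had 0 rises and 3 falls. Of 29 genes of mitochondrial dynamics and import 3 rose (10.3%) and 1 fell (3.45%), both below the shares of all genes, with a median of 0.06. The import genes timm-23 (0.68 ± 0.14) and timm-17B.1 (0.43 ± 0.14) and the cristae gene immt-1 (1.04 ± 0.22) rose. The fall was that of miro-1, which moves mitochondria along microtubules (-0.55 ± 0.18). On a TPM scale that list had 1 rise and 2 falls. Of 68 mitochondrial ribosomal protein genes 1 was called, mrps-35 (-0.59), and the list's median was 0.01.

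Shares of higher calls differed among the stress lists, from 9.52% for cytosolic heat shock to 34.2% for metal handling, against 12.8% for all genes. In the mitochondrial unfolded protein response list 5 of 21 rose (23.8%), with the matrix protease clpp-1 (0.99 ± 0.17) and gpd-2 (1.16 ± 0.25) in front. In the same list 3 fell (14.3%), all chromatin factors: lin-65 (-0.87 ± 0.19), jmjd-1.2 (-0.60) and met-2 (-0.45). The chaperonin gene hsp-60 was not called (0.04 ± 0.15). On a TPM scale this list had 2 rises and 3 falls. Of 36 genes of folding in the endoplasmic reticulum 4 rose (11.1%), below the share of all genes, with xbp-1, its stress transcription factor, at 417, 554, 438, 371 and 954 CPM in gas-1 and 170, 302, 244, 231 and 199 CPM in wild type, and with the signal peptidase subunit spcs-1 (1.31 ± 0.19), the folding sensor uggt-1 (0.72 ± 0.19) and the disulfide isomerase pdi-2 (0.65 ± 0.20). The thioredoxin-like dnj-27 fell (-1.16), and on a TPM scale there were 3 rises and 4 falls. Of 21 cytosolic heat shock genes 2 rose (9.52%), hsp-17 (2.01 ± 0.39) and hsp-12.3 (1.60 ± 0.54), and hsp-90 stood at -0.47 ± 0.17 (adjusted p 0.0568).

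Of 30 antioxidant enzymes 5 rose and none fell: besides msra-1 these were the glutathione peroxidase gene gpx-7 (1.69 ± 0.29), the catalase gene ctl-1 (1.00 ± 0.22), and the mitochondrial thioredoxin genes trx-2 (0.99 ± 0.26) and trxr-2 (0.68). The hydrogen sulfide and hypoxia list had 3 of 23 members higher (13%) and 2 lower (8.7%), close to the shares of all genes. In it cth-1, which splits cystathionine to cysteine, had 80.5, 74.4, 133, 103 and 251 CPM in gas-1 and 23.3, 55.7, 30.7, 31 and 23.2 CPM in wild type, mpst-3 (1.15 ± 0.25) and cysl-1 (0.90 ± 0.29, but -0.19 with the covariate) also rose, and cysl-2 (-1.69 ± 0.56) and efk-1 (-0.53 ± 0.17) fell. The hypoxia factor hif-1 was not called (0.58 ± 0.26, adjusted p 0.11). A run on chromosome IV (8134016 to 8148648) joined isp-1, the Rieske iron-sulfur subunit of complex III (0.54 ± 0.15), to 2 p38 MAP kinase genes, pmk-3 with 34.1, 32.8, 26.1, 23.3 and 31.7 CPM in gas-1 and 9.55, 18.7, 9.86, 19.3 and 12.3 CPM in wild type, and pmk-2 (1.54 ± 0.39).

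Genes of metal handling were called higher more often than all genes (34.2%). Of 38 tested, 13 rose and 1 fell, zipt-11 (-0.59), with a median of 0.66, and 7 of the rises were called without wild type replicates 1, 2 and 4 and 4 with the germline covariate. The cadmium-responsive gene cdr-4 (chromosome V, 12407366 to 12408625) had 176, 68.2, 127, 60.7 and 40 CPM in gas-1 and 5.19, 6.21, 2.81, 5.31 and 4.05 CPM in wild type. Its neighbour cdr-2 (12414656 to 12415709) had 133, 62, 112, 49 and 64.3 CPM in gas-1 and 4.2, 5.26, 4.99, 9.32 and 5.76 CPM in wild type. The zinc transporter gene zipt-2.3 had 38.5, 27.7, 36.1, 25.2 and 29.8 CPM in gas-1 and 1.66, 2.27, 3, 2.52 and 0.97 CPM in wild type. Groups were separate in all 3. The metallothionein gene mtl-2 (1.24 ± 0.27), the ferritin gene ftn-2 (0.85 ± 0.24), the copper pump gene cua-1 (0.64) and 5 heme-responsive genes, hrg-9, hrg-3, hrg-7, hrg-4 and hrg-1 (1.501 to 3.52), rose too.

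Detoxification families held many rises, at shares above the 12.8% of all genes. They were 12 of 28 glutathione S-transferases (42.9%), 24 of 57 cytochrome P450s (42.1%), 17 of 54 UDP-glucuronosyltransferases (31.5%), 13 of 28 carboxylesterases (46.4%) and 11 of 41 ABC transporters (26.8%). Falls numbered 0, 4, 3, 0 and 1. Without wild type replicates 1, 2 and 4 the rises still called numbered 7, 12, 13, 3 and 4, and with the germline covariate 2, 6, 5, 2 and 2. The glucuronosyltransferase gene ugt-62 (chromosome III, 4537281 to 4540623) had 1428, 1156, 1661, 1146 and 1297 CPM in gas-1 and 71, 165, 142, 209 and 113 CPM in wild type. The transferase gene gst-38 had 26.3, 22.1, 29.1, 14 and 25.2 CPM in gas-1 and 1.14, 1.57, 3.26, 1.86 and 0.513 CPM in wild type, and the P450 gene cyp-33C8 had 473, 168, 441, 113 and 212 CPM and 8.87, 15.4, 1.85, 9.14 and 1.37 CPM.

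Not all abundant members took part. The P450 genes cyp-35A2 (0.49 ± 0.30) and cyp-35C1 (0.16 ± 0.28) and the transferase gene gst-10 (0.19 ± 0.25) were not called. The P450 genes that fell were cyp-31A2 and cyp-31A3, which act in eggshell formation (-0.66 and -0.77), and cyp-14A3 and cyp-32A1, which had 0 counts in all 5 gas-1 libraries and averaged 3.10 and 1.54 CPM in wild type, at least 78.1-fold and 38.7-fold lower against a floor of 3 counts over the gas-1 group. None of the 19 flavin monooxygenase, sulfotransferase and aldehyde dehydrogenase genes was called by edgeR or limma-voom, DESeq2 called 1, and 3 had an unadjusted p under 0.05. Short-chain dehydrogenases were split, with 4 rises and 6 falls of 27. Among the falls, dhs-26 had 1.77, 1.99, 0.51, 8.91 and 0 CPM in gas-1 and 222, 209, 142, 294 and 128 CPM in wild type.

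Of 159 nuclear hormone receptor genes 31 rose (19.5%) and 4 fell. Those that rose included nhr-115, with 20.3, 15.8, 25.2, 15.2 and 33.8 CPM in gas-1 and 2.59, 4.6, 3.4, 4.57 and 3.19 CPM in wild type, and nhr-8, which acts in xenobiotic resistance and sterol handling (1.504 ± 0.30). In a list of 41 transcription factors of stress and gut identity 14 rose, among them sbp-1, the sterol regulatory element binding protein (1.32 ± 0.27), klf-3 (1.68), pqm-1 (1.35), zip-10 (1.52) and nhr-68 and nhr-114, which respond to low vitamin B12 (0.88 and 0.81, but -0.28 and -0.20 with the covariate). The abundant skn-1, regulator of detoxification genes, stood at 0.10 ± 0.14 and was not called. The single fall of this list rested on 1 library: nhr-80 had 32.5, 30.6, 34.8, 30 and 51.7 CPM in gas-1 and 9788, 69.5, 18.3, 19 and 10.6 CPM in wild type. Its log2 change was -5.79 with wild type replicate 1 and 0.36 without it.

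In the tricarboxylic acid list 6 of 26 rose and 1 fell, with citrate synthase, cts-1 (1.18 ± 0.19), and the succinate-CoA ligase subunit sucl-1 (0.99 ± 0.19) higher and sucg-1, another subunit of that ligase, lower (-0.74). The glyoxylate gene icl-1 stood at -0.49 ± 0.56. In glycolysis 4 of 24 rose (16.7%) and 1 fell (4.17%), and in the trehalose, glycogen and pentose phosphate list 4 of 26 rose (15.4%) and 3 fell (11.5%), shares near those of all genes. Of these, gpd-2, gpd-3 (0.82), enol-1 (0.55 ± 0.14) and pyk-2 (0.97 ± 0.27) rose, and hexokinase, hxk-1, fell (-0.71 ± 0.16). In the pentose phosphate pathway T25B9.9, a 6-phosphogluconate dehydrogenase (0.93 ± 0.18), tald-1 (0.74 ± 0.18), rpia-1 (0.76 ± 0.19) and tkt-1 (0.74 ± 0.20) rose, while glycogen synthase, gsy-1 (-0.75), and the debranching enzyme agl-1 (-0.56) fell. On a TPM scale the glycolysis list had 3 rises and 3 falls and the trehalose, glycogen and pentose phosphate list 4 and 4.

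Of 37 genes of amino acid breakdown 11 rose and none fell (median 0.33). The glutamate dehydrogenase gene gdh-1 averaged 1926 CPM in gas-1 and 1067 CPM in wild type (0.85 ± 0.19), and gcst-1 of the glycine cleavage system (1.25 ± 0.25), hgo-1, which opens the ring of homogentisate (0.99 ± 0.27), and ddo-2, a D-aspartate oxidase (1.22 ± 0.34), rose. Of 29 genes of propionate, vitamin B12 and methionine metabolism 7 rose and 1 fell. The rises included mel-32, a serine hydroxymethyltransferase (1.02 ± 0.21), mtrr-1, the reductase of methionine synthase (0.92 ± 0.17), and pmt-2, of phosphatidylcholine synthesis (0.94 ± 0.24). The fall was that of sams-3, an S-adenosylmethionine synthetase (-0.47 ± 0.15). On a TPM scale that list had 5 rises and 5 falls. Without wild type replicates 1, 2 and 4, 1 of its rises was still called, and 5 of those in amino acid breakdown. No call of either list held with the germline covariate. The propionate shunt gene hphd-1 was not called (0.24 ± 0.30).

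In the lists of fatty acid, fat storage and sphingolipid genes, higher calls made up 20.4% to 46.2% and lower calls 1.85% to 11.5%. Over all genes the shares were 12.8% and 8.63%. None of the rises in these lists was called with the germline covariate. Without wild type replicates 1, 2 and 4, the rises still called were 3 in fatty acid synthesis and 2 in the peroxisomal list. They were 2 in fatty acid activation, 4 in fat storage and 5 in the sphingolipid list. Among 26 genes that make, desaturate or elongate fatty acids 12 rose and 3 fell (median 0.62). The desaturase gene fat-2, which turns oleic into linoleic acid, had 2429, 1186, 2207, 1759 and 1860 CPM in gas-1 and 519, 785, 764, 961 and 547 CPM in wild type, and the elongase gene elo-5, needed for branched-chain fatty acids, averaged 1613 and 703 CPM. The desaturase pair parted: fat-6 rose (1.12 ± 0.27), and fat-7, with 26, 6.23, 22.9, 21 and 22.6 CPM in gas-1 and 26.9, 44.8, 50.7, 61.1 and 29.8 CPM in wild type, fell (-1.11 ± 0.38, adjusted p 0.0463), a call lost in all 10 fits that left out 1 library. The other falls were nhr-80, described above, and acly-2, an ATP citrate lyase (-0.62).

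In fat breakdown, 11 of 32 peroxisomal genes rose, among them the transporter pmp-1 (1.80 ± 0.26), against the single fall of acox-1.2, and 11 of 54 genes of fatty acid activation and mitochondrial beta-oxidation rose, led by ard-1 (0.74 ± 0.14) and ech-7 (1.25 ± 0.26), against acs-20 (-2.72 ± 0.89). The lysosomal lipase genes lipl-3, lipl-4 and lipl-1 averaged 65.9, 14.6 and 32.1 CPM in gas-1 and 10.7, 1.71 and 4.91 CPM in wild type. In their list, 15 of 46 genes of fat storage, lipases and phospholipids rose, and acl-4 and the triglyceride lipase gene atgl-1 (-0.44) fell. Of 26 sphingolipid genes 10 rose, with ttm-5, which desaturates dihydroceramide (2.21 ± 0.36), the glucocerebrosidase gene gba-1 (1.60 ± 0.29) and sptl-1, the first step of synthesis (0.94 ± 0.20), and asm-3, a sphingomyelinase (-3.06 ± 0.74), gba-2 (-1.37) and cerk-1, a ceramide kinase gene (-0.60), fell. Yolk genes took 29.1% ± 3.12 of the counts in gas-1 and 27.4% ± 6.11 in wild type (exact two-sided permutation p 0.556), and vit-2 stood at 0.75 ± 0.32 (adjusted p 0.102).

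Of 22 V-ATPase subunits, which acidify lysosomes and the gut lumen, 15 rose (68.2%), but 7 rose and 2 fell on a TPM scale, and 4 of the 15 were called in all 10 fits that left out 1 library. Among the rises was vha-2, at 426, 287, 425, 373 and 409 CPM in gas-1 and 191, 202, 244, 258 and 189 CPM in wild type. The fall of vha-5 (-2.57 ± 0.87) was lost in 8 of 10 fits that left out 1 library. No V-ATPase gene was called with the covariate and 1 without wild type replicates 1, 2 and 4. Of 42 lysosomal and digestive proteases 13 rose and 6 fell. The cathepsin B-like gene cpr-4 (chromosome V, 6614674 to 6615851) had 3606, 2157, 3842, 3012 and 3174 CPM in gas-1 and 348, 558, 632, 671 and 336 CPM in wild type, and cpr-9 averaged 13497 ± 2215 CPM in gas-1 and 6440 ± 2355 CPM in wild type. The aspartyl protease gene asp-8 averaged 34 and 2.26 CPM (3.96 ± 0.51). Of 28 autophagy genes 3 rose (10.7%), below the 12.8% of all genes, and none fell. The median of this list was -0.1, against -0.11 for all genes. The rises were sqst-1, the autophagosome protein lgg-1 (0.55 ± 0.17) and epg-5 (2.99 ± 1.03). Among them sqst-1 alone was called in all 10 fits that left out 1 library.

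Among defence genes, 27 of 84 C-type lectins rose (32.1%) and clec-209 and clec-47 (-1.01) fell. Of 12 tested lysozyme genes 3 rose (25%) and none fell. The rises were lys-2 (870 and 221 CPM on average), lys-1 (1.31 ± 0.23) and ilys-4 (1.97 ± 0.48). Of 16 tested saposin-like genes 3 rose (18.8%) and 1 fell (6.25%). Here spp-18 (2.16 ± 0.29), spp-25 (1.57 ± 0.27) and spp-23 (1.68 ± 0.31) rose, and spp-15 fell (-3.95 ± 1.18). Of 46 infection-induced and dod genes 12 rose, with cld-9 (1.77 ± 0.25) first, and 5 fell, dod-24, dod-23 (-0.94), F55G11.2 (-2.06), C32H11.4 (-1.71) and cnc-8 (-2.79). Of 11 tested pals genes, a family that includes regulators of the response to intracellular pathogens, 5 rose (45.5%) and none fell (median 2.21). The leading one, pals-24, had 20.9, 20.9, 26.7, 18.9 and 40.5 CPM in gas-1 and 1.56, 5.26, 5.41, 4.1 and 3.65 CPM in wild type. F-box, MATH and BTB domain genes, many of them substrate adaptors for ubiquitin ligases, gave 45 rises (24.7%) and 8 falls of 182, led by fbxc-58, which averaged 9.84 and 0.368 CPM. Fewer calls of these lists, here in the order named, held without wild type replicates 1, 2 and 4. The rises still called were 11, 3, 3, 4, 3 and 19, and the falls 1, 0, 0, 3, 0 and 1. With the germline covariate the rises were 4, 1, 1, 0, 1 and 5, and the falls 2, 0, 0, 4, 0 and 0.

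Nutrient uptake genes rose in 13 of 61 cases, with the aquaporin gene aqp-4 at 110, 70, 116, 89.9 and 134 CPM in gas-1 and 19.8, 31.5, 32.6, 31.1 and 20.4 CPM in wild type, the nucleoside transporter gene ent-4 (1.40 ± 0.26) and the amino acid transporter gene aat-6 (1.499 ± 0.33). The chloride channel gene clh-1 (-2.67) and ent-6 (-0.69) fell, and the peptide transporter gene pept-1 was not called (0.66 ± 0.33).

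In the insulin pathway 6 of 31 genes fell and 1 rose (median -0.26). The falls covered both directions of the pathway: the phosphatase gene daf-18 had 146, 190, 133, 187 and 124 CPM in gas-1 and 307, 288, 347, 200 and 299 CPM in wild type, and the lipid kinase gene age-1 (-0.85 ± 0.20), its adaptor aap-1 (-0.80 ± 0.21) and the protein kinases pdk-1 (-0.84 ± 0.25) and akt-1 (-0.52) fell too, with nprl-2 (-0.66). The kinase gene sgk-1 rose (1.01), and the transcription factor daf-16 was not called (0.24 ± 0.19). None of these calls held with the germline covariate. Among kinesins, dyneins and tubulins 4 rose, klp-4, tba-7, tba-4 (1.25 ± 0.28) and tbb-6, a beta tubulin gene at 35.2, 10.4, 22.4, 6.21 and 0 CPM in gas-1 and at most 0.57 CPM in wild type, and 7 fell, while the abundant tba-2 (-0.07 ± 0.15) and tbb-2 (0.02 ± 0.17) were not called.

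Of 81 cytosolic ribosomal protein genes 3 rose, rpl-25.1 (1.09 ± 0.24), rpl-11.2 (0.83 ± 0.24) and rps-16 (0.48 ± 0.16), with a median of 0.33. The count of this list depended on the tool and the scaling: DESeq2 called 37 and limma-voom 17, 43 had an unadjusted p under 0.05, and edgeR gave 11 rises under RLE scaling and 32 under upper quartile scaling. Of 46 translation factors iff-2 (1.16 ± 0.21), pab-2 (1.13 ± 0.28) and eef-1A.2 (0.87 ± 0.22) rose and egl-45 fell (-0.60 ± 0.16), a list that had 3 rises and 9 falls on a TPM scale. The elongation factor eef-1A.1 averaged 6260 ± 273 CPM in gas-1 and 6489 ± 439 CPM in wild type and was not called. Of 32 nucleolar genes ncl-1, a repressor of nucleolar size, rose (0.90 ± 0.29), and imp-3, pro-2, nol-10 and nst-1 fell (-0.65 to -0.44). One gene was called in each of the lists of aminoacyl-tRNA synthetases, pars-1 (-0.50), and proteasome subunits, rpn-6.1 (-0.49).

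**Figure D5:**
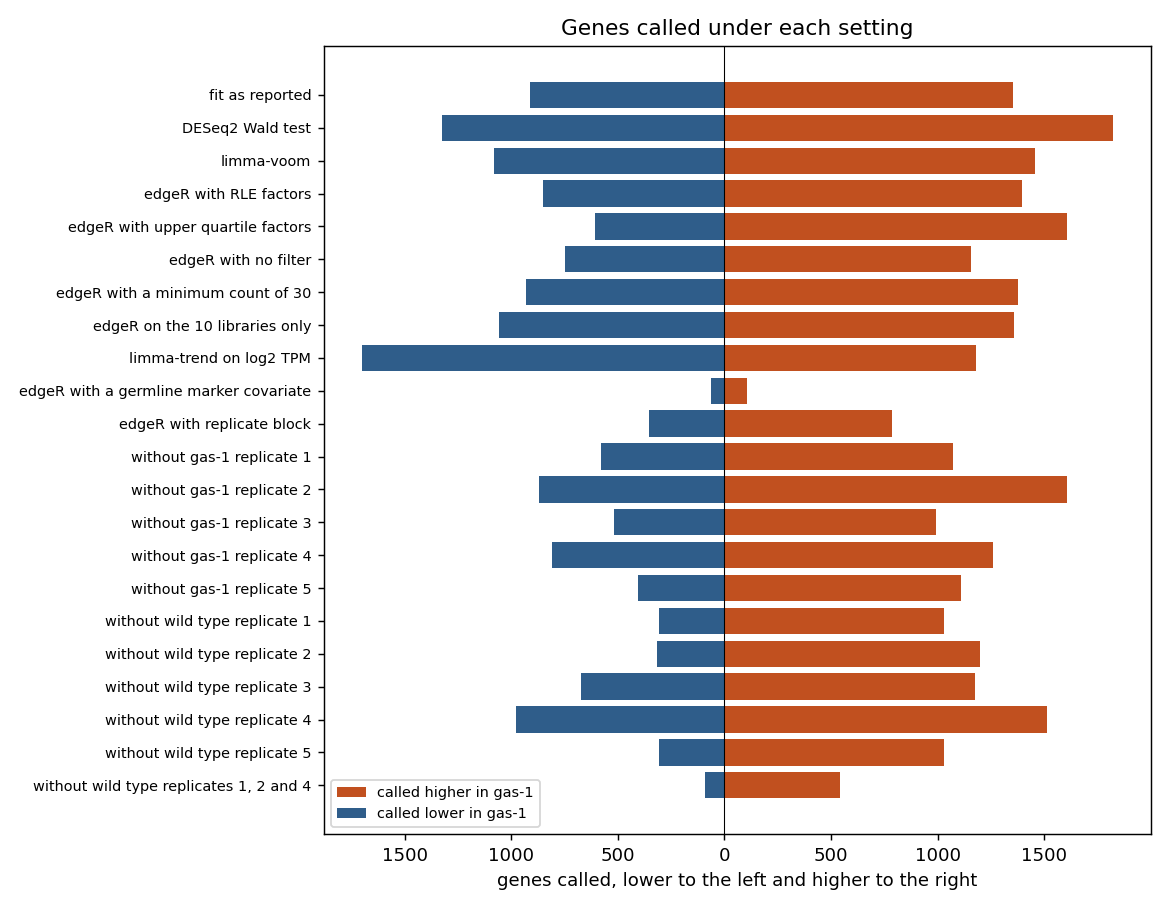
Number of genes called higher (right of 0) and lower (left of 0) in gas-1 in the fit and in 21 alternatives, with the fit at the top. The germline marker covariate leaves 108 higher and 64 lower calls, and lower calls drop to 93 without wild type replicates 1, 2 and 4.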

How the data were processed

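RNA of dissected intestines was sequenced from non-strand-specific Smart-seq2 libraries, per the labels' protocols. Per the submitters' processing notes, reads were handled with bcl2fastq 2.20 and kallisto 0.44.0 on build WBcel235. The authors deposited 1 table per library with estimated counts, which are not normalized, and TPM values, scaled by effective transcript length. Other columns that the authors deposited, transcript lengths and a text map of transcripts to genes, served only to name genes and give their biotype. Transcripts carry whole numbers in place of names, and these were read as line numbers, from 0, of the deposited map. Under that reading 99.95% of 27886 noncoding transcripts had their annotated length (Ensembl release 115), against 51.83% when shifted by 1 line, so all gene names rest on it. A deposited table of the authors' own tests was not used.

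Estimated counts were summed per gene, rounded and fitted with edgeR 4.0.16 (R 4.3.3) on all 15 libraries, with TMM factors, filterByExpr at a minimum count of 10, the quasi-likelihood test of gas-1 minus wild type and Benjamini-Hochberg adjustment over 10585 genes at 0.05. Adjusted p-values in the text come from this fit, except those of the permutation tests, which are adjusted over 3 single values. The 21 alternatives used DESeq2 1.42.0, limma 3.58.1 (voom, and trend on log2(TPM + 0.5)), other scalings and filters, the 10 libraries alone, a germline marker covariate, a replicate block and fewer libraries. Single values were compared by exact permutation with scipy 1.17.1. Tested on simulated data for gas-1 against wild type over 10585 genes, the fit called 22% of 50 genes made higher by 1 on the log2 scale, 20% of 50 made lower by 1, 60% of 50 made higher by 2 and 82% of 50 made higher by 3, and 3 of 10385 unchanged genes. A gene that was not called may therefore still differ.

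The genes compared, the 73 gene lists and the tests were chosen with earlier results of these data known. Genes were named by a rule: gas-1 and nduf-2.2, the called genes without overlap that had the smallest adjusted p, the largest difference in CPM or the largest log2 change, up to 4 called and 2 uncalled members of each list, and members of small counts. Of 273 genes named, 69 stand outside that rule and were chosen after their values were seen. Depth limits precision for genes with few counts, and floors cover counting error only.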

Additional observations from a re-analysis of the deposited data

Results flagged for a closer look

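Of 550 groups of 5 libraries tested, 29 (5.27%) held 1 library whose gap to its nearest neighbour took more than 0.71 of the group's range, and chance gives about 1 in 20. The share of the range is given for each. In gas-1 replicate 2 it was 0.835 for F23C8.5, 0.792 for atp-3, 0.773 for cyc-2.1, 0.737 for fat-6, 0.85 for fat-7, 0.803 for ifb-2, 0.753 for lin-65, 0.732 for mev-1, 0.833 for slc-25A10 and 0.729 for tald-1. In other gas-1 libraries it was 0.821 for clpp-1 in replicate 3, 0.76 for lbp-2 and 0.799 for mec-12 in replicate 4, and 0.729 for nhr-80 in replicate 5. In wild type replicate 1 it was 0.926 for coq-1, 0.826 for cyp-13A7, 0.792 for lipl-4, 0.765 for nhr-68, 0.725 for nhr-80, 0.734 for rpa-4 and 0.816 for spp-25. In wild type replicate 4 it was 0.73 for aap-1, 0.72 for acly-2, 0.844 for cyp-31A3, 0.803 for fbxc-2, fbxc-3 and fbxc-4, which are 1 measurement, and 0.712 for mtrr-1. In wild type replicate 3 it was 0.72 for far-6.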

How the results depend on the processing

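The gas-1 and wild type libraries share replicate numbers, and the labels do not say whether these pair anything. Correlations of same-numbered deviations ran from -0.0718 to 0.0933, and 0 of 5 pairs passed 0.1. Those of unlike-numbered libraries ran from -0.27 to 0.13. Whether same-numbered libraries shared a day or culture cannot be told from these values. With the replicate number as a block 1141 genes were called, 787 higher and 354 lower. The germline covariate gave 172 calls, 108 higher and 64 lower, and leaving out wild type replicates 1, 2 and 4 gave 633, 540 higher and 93 lower. Lower calls numbered 606 with upper quartile scaling and 1702 on the TPM scale. Leaving out 1 library gave 1333 to 2492 calls, 994 to 1608 higher and 305 to 979 lower. The difference in yolk share, 0.11 in log2, was -0.00778 without wild type replicate 1 and ran up to 0.2065 when any other single library was left out. DESeq2 called 3146 genes and limma-voom 2537. The causes of these shifts were not tested.

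Of the named genes, these turned direction with the germline covariate, at log2 changes of -0.19 for cysl-1, -0.0052 for ddo-2, -0.20 for elt-2, -0.062 for gpd-3, 0.088 for hil-4, -0.054 for lmp-1, -0.0074 for mak-2, 0.083 for nduf-2.2, -0.20 for nhr-114, -0.28 for nhr-68, -0.031 for rpl-11.2, -0.026 for slc-25A10 and -0.066 for unc-13. Without wild type replicates 1, 2 and 4, cysl-2 stood at 0.25 and nhr-80 at 1.33, and without wild type replicate 1 alone nhr-80 stood at 0.36, against a lowest value of -6.105 when other single libraries were left out.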
